A study of Mus musculus with 4 samples.

Results

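Blood Ly6Chi and Ly6Clo monocytes of control mice were compared across all genes, from the 2 control libraries among the 4 libraries of the study. The 2 members were chosen by their labels, as the control pair of libraries, with 1 library for each subset. Control mice had the genotype Rbpj+/+ Lyz2 cre/cre. Their libraries are titled WT in the deposited records, where the genotype entry reads Lyz2-Cre. The other 2 libraries hold Ly6Chi and Ly6Clo monocytes of RBP-J-deficient mice (Rbpj fl/fl Lyz2 cre/cre), which lack in myeloid cells the transcription factor through which Notch receptors act. Both genotypes thus carried the Cre recombinase on both alleles of Lyz2, the lysozyme gene whose promoter drives it in myeloid cells, so that Lyz2 itself is altered in all 4 libraries. Mice were matched for gender and age, no treatment is named, and the strain and the number of mice behind each library are not given in the sources used here. In the study, bone marrow monocytes were gated as CD45+CD11b+Ly6G-CD115+ cells and divided by surface Ly6C. Blood cells were stained for the same proteins in its labelling experiments. The gate for the blood monocytes of the RNA-seq is not given.

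Expression was measured by RNA-seq and deposited as FPKM, fragments scaled to transcript length and to the mapped fragments of the library. Differences are given as the log2 ratio of (FPKM + 1), Ly6Chi over Ly6Clo, so that a positive ratio is a higher level in Ly6Chi monocytes, and the added 1 understates the difference of genes with low values. Each group is a single library. None of the differences therefore has a replicate check, and no p-value is given. In libraries made from many cells, fewer cells of a type and less RNA per cell cannot be told apart. The table lists 23997 gene rows, of which 9840 (41.0%) reached an FPKM of 1 in either control library and are called expressed here. FPKM summed to 717356 in control Ly6Clo and to 711510 in control Ly6Chi monocytes, 9239 and 9395 genes had an FPKM of at least 1, and the depth of the libraries is unknown.

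Monocytes leave the bone marrow as Ly6Chi cells, also called classical or inflammatory monocytes, which use the chemokine receptor CCR2 to enter the blood and inflamed tissue. A fraction of them converts in the blood into Ly6Clo cells, also called nonclassical or patrolling monocytes. These crawl along the inner wall of vessels, live longer and depend on the nuclear receptor NR4A1. In mice the subsets are told apart by Ly6C, a small protein held on the cell surface by a lipid anchor and encoded by the neighbouring genes Ly6c1 and Ly6c2.

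The 4 markers chosen for the subsets lay on the sides that the labels give. Ly6c2 had an FPKM of 10.9 in Ly6Clo and 2013 in Ly6Chi monocytes, a log2 ratio of 7.4. Because the cells were sorted on Ly6C, this value checks the sort and is not a finding. Ccr2 had 59.2 in Ly6Clo and 712 in Ly6Chi monocytes, a log2 ratio of 3.57. Nr4a1 had 618 in Ly6Clo and 214 in Ly6Chi monocytes, a log2 ratio of -1.53. Ace, which encodes the angiotensin-converting enzyme, a surface protein of nonclassical monocytes, had 109 and 26.4, a log2 ratio of -2.0. The genes of the proteins that the gate given for bone marrow requires on both subsets differed by less than 2-fold in RNA level. Csf1r, the gene of CD115, had 407 in Ly6Clo and 307 in Ly6Chi monocytes, Itgam, the gene of CD11b, had 57.7 and 66.2, and Ptprc, the gene of CD45, had 556 and 442.

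Most genes had similar levels in both subsets. The median log2 ratio over the 9840 expressed genes was 0.000722, and 86.5% of them lay within 2-fold. Across these genes, which are not independent replicates, log2(FPKM + 1) of the 2 libraries had a Pearson correlation of 0.930. The settings by which the libraries were scaled to each other are not given, and such scaling can by itself bring the median ratio near 0. At the fold thresholds of the study's methods, 102 genes (1.04% of those tested) were at least 5.7-fold higher in Ly6Chi monocytes and 88 genes (0.894%) were at 0.2-fold or lower. These thresholds are unequal, at log2 ratios of 2.51 and -2.32, so that a smaller difference suffices for a lower gene. At 2-fold, which is equal in both directions, 794 genes (8.07%) were higher and 533 (5.42%) lower. The counts depend on the value added to FPKM before the ratio is taken: with 0.1 in place of 1, 284 genes were at least 5.7-fold higher and 197 at 0.2-fold or lower, and with 5 in place of 1, 34 and 43.

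The genes that were lower in Ly6Chi monocytes were on the whole the more abundant ones in their own subset. The 88 lower genes had a median FPKM of 47.6 in Ly6Clo monocytes, and 35 of them reached 100 there. The 102 higher genes had a median FPKM of 26.7 in Ly6Chi monocytes, and 23 of them reached 100. Of the higher genes, 13 are listed at 0 in Ly6Clo monocytes, and of the lower genes, 6 are listed at 0 in Ly6Chi monocytes. Of these genes, 4 of the higher and 3 of the lower ones encode small RNAs. Just inside the upper threshold lay Ocstamp at a log2 ratio of 2.51, and Glrx, at nearly the same value, lay just outside it. At the lower threshold Dpep2 lay just inside at -2.32 and Trem1 just outside at -2.31.

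**Figure D1:**
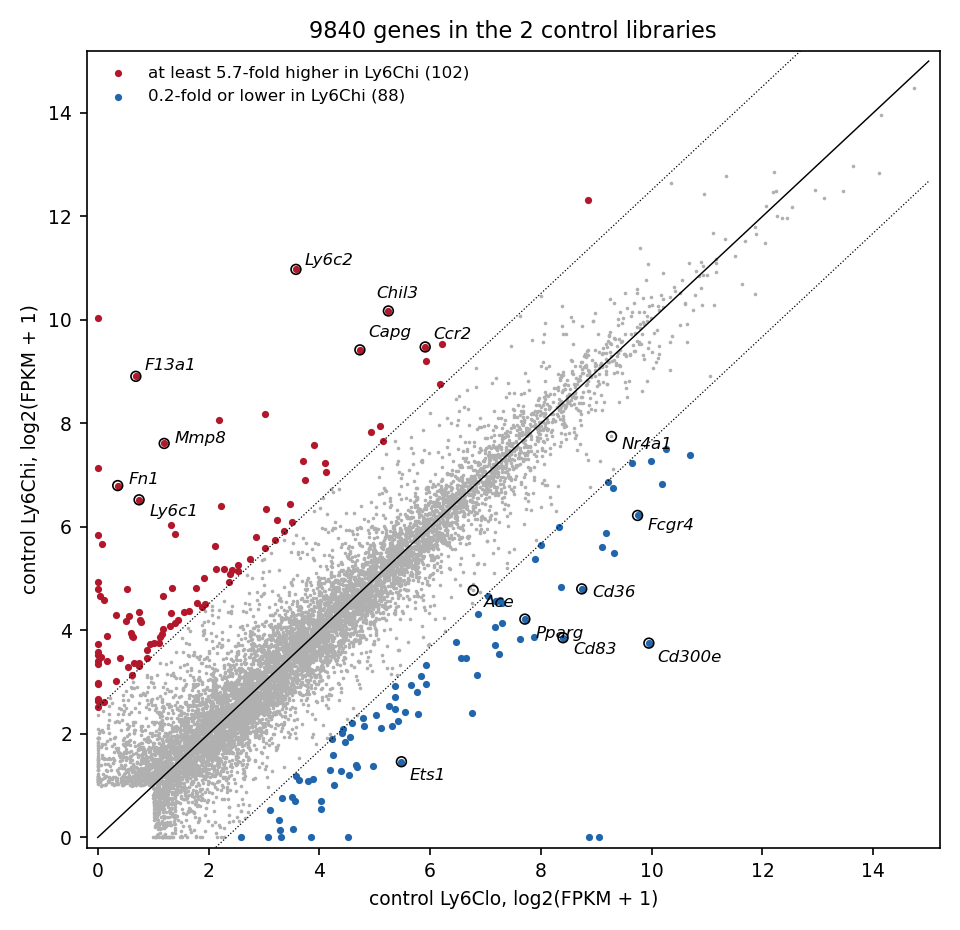
Level of each of the 9840 expressed genes in control Ly6Clo (horizontal axis) and control Ly6Chi monocytes (vertical axis), both as log2(FPKM + 1), 1 point per gene. The solid line marks equal levels and the dotted lines the fold thresholds, past which lie 102 genes above (red) and 88 below (blue), with F13a1 and Ly6c2 farthest above among the labelled genes and Cd300e farthest below.

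Small RNAs left aside, the largest ratio in favour of Ly6Chi monocytes was that of F13a1. F13a1, the catalytic subunit of coagulation factor XIII, which cross-links fibrin, had an FPKM of 0.611 in Ly6Clo and 479.8 in Ly6Chi monocytes (log2 ratio 8.22). Fn1, the matrix protein fibronectin, had 0.284 and 110.3 (log2 ratio 6.44). Mmp8, a collagenase stored in granules, had 1.30 and 195 (log2 ratio 6.41). Chil3, a chitinase-like secreted protein also called Ym1, had 37.0 and 1153 (log2 ratio 4.93). Cd177, a surface glycoprotein known from neutrophils, had 7.07 and 289 (log2 ratio 5.16). These 5 genes were thus nearly absent, or more than 10 times less abundant, in the Ly6Clo library.

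Ly6c1 followed the pattern of Ly6c2, with 0.677 in Ly6Clo and 91.0 in Ly6Chi monocytes (log2 ratio 5.78). The transcripts of Ly6c1 and Ly6c2 are 97.6% identical over 822 aligned bases, so the division of fragments between them is uncertain. Capg, an actin filament capping protein, had 25.6 and 684 (log2 ratio 4.69). Ms4a8a, a membrane protein with 4 spans, had 1.51 and 64.8 (log2 ratio 4.71). The granule protease gene Prtn3 is listed at 0 in Ly6Clo monocytes and had 29.5 in Ly6Chi monocytes, and its deposited position spans several genes. Mmp8, Cd177 and Prtn3 also stand on a list of neutrophil genes, which summed to 279.7 FPKM in Ly6Clo and 1916 in Ly6Chi monocytes. Of these sums, S100a8 alone held 197 and 1085. S100a8, S100a9, Mmp8 and Cd177 are also classical monocyte markers, so the sums do not measure neutrophils alone. The part of neutrophils in the values of Mmp8, Cd177 and Prtn3 was not tested. Padi4, an enzyme that converts arginine in histones to citrulline, had 0.0850 and 22.9 (log2 ratio 4.46), and Gas7, a protein of the actin cytoskeleton, had 0.0255 and 24.4 (log2 ratio 4.63). Smim5, a small membrane protein, had 1.61 and 57.4 (log2 ratio 4.48). Also among the 15 highest is the pseudogene Atp6v0c-ps2 with 0.0547 and 49.9. Its deposited position is on chromosome 17 and its annotated position on chromosome 6, so its value is uncertain.

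Small RNAs again left aside, the 15 genes with the smallest ratios, and thus the lowest in Ly6Chi relative to Ly6Clo monocytes, were led by Cd300e. Cd300e, an activating receptor of monocytes, had an FPKM of 987 in Ly6Clo and 12.5 in Ly6Chi monocytes (log2 ratio -6.19). Cd83, a surface protein that keeps MHC class II molecules on the cell surface, had 337 and 13.5 (log2 ratio -4.54). Fcgr4, the receptor for IgG called CD16.2, had 857 and 73.6 (log2 ratio -3.52). The leukocyte receptors Lilra5 and Slamf9 had 151 and 10.6, and 113 and 7.77, with a log2 ratio of -3.71 for Lilra5 and -3.70 for Slamf9. Dusp16, a phosphatase that inactivates MAP kinases of the JNK type, had 107 and 4.33 (log2 ratio -4.33). Ets1, a transcription factor best known from lymphocytes, had 43.7 and 1.76 (log2 ratio -4.02).

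Fabp4 and Cd36, which bind and take up fatty acids, had log2 ratios of -4.0 and -3.93, with 235 and 426 FPKM in Ly6Clo against 13.8 and 26.9 in Ly6Chi monocytes. G0s2, an inhibitor of the main triglyceride lipase, had 197 and 13.3 (log2 ratio -3.80). Slc12a2, a sodium, potassium and chloride cotransporter, had 30.4 and 1.62 (log2 ratio -3.59). The 3 survival genes Bcl2a1a, Bcl2a1b and Bcl2a1d had 329, 638 and 549 FPKM in Ly6Clo against 27.6, 43.9 and 47.8 in Ly6Chi monocytes. Their log2 ratios lay between -3.83 and -3.49. Their transcripts are 98.2% to 99.1% identical, so that they are better read as 1 group than as 3 genes. Also among the 15 lowest, Gm4956 had 22 in Ly6Clo monocytes and is listed at 0 in Ly6Chi monocytes.

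**Figure D2:**
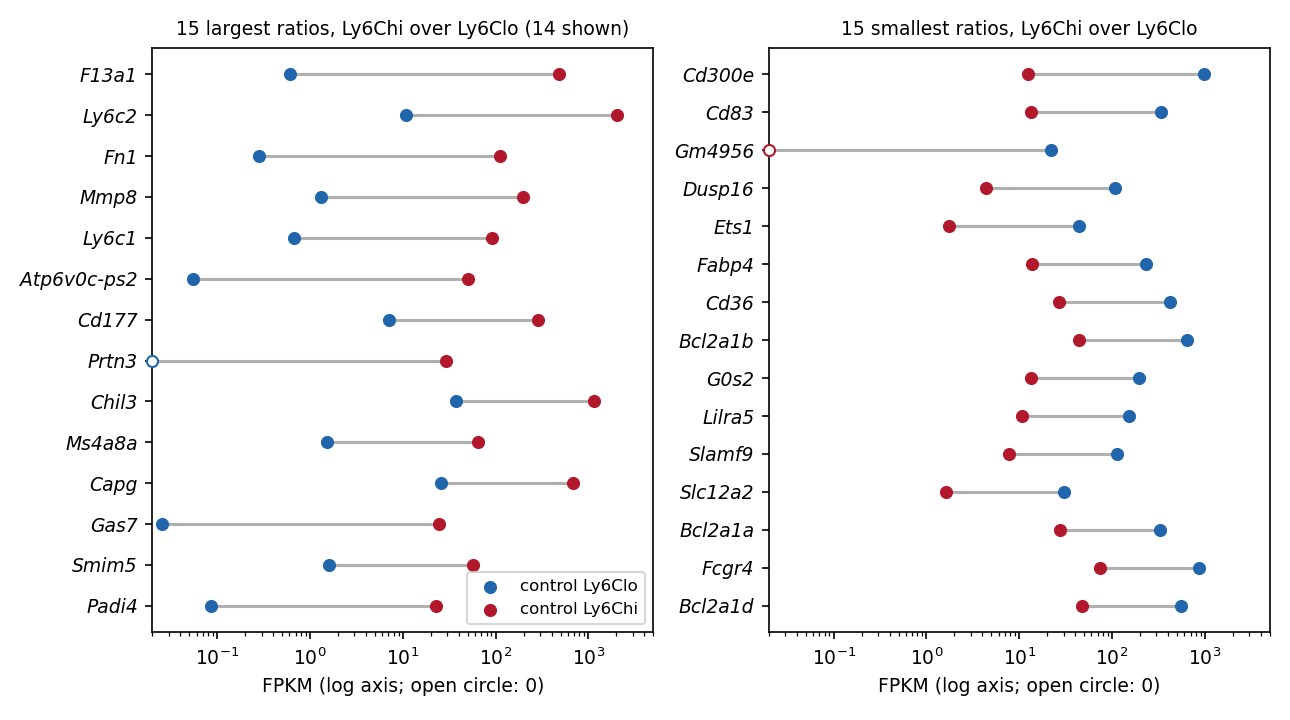
FPKM on a log axis in control Ly6Clo (blue) and control Ly6Chi monocytes (red) for 14 of the 15 genes with the largest ratio and the 15 with the smallest ratio, 1 line per gene and 1 point per library. An open circle at the left edge is a value listed as 0. The points of a gene lie far apart throughout, for example at 0.611 and 479.8 for F13a1 and at 987 and 12.5 for Cd300e.

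The 250 bases before the start sites of the genes were searched for 6 sequence motifs on both strands. RefSeq start sites on GRCm38.p6 were found for 7474 of the 9840 expressed genes, for 70 of the 102 higher and for 57 of the 88 lower genes. The following 4 show the motifs of most interest beside large differences, written 5′ to 3′ in the direction of the gene with the matches in capitals. Ly6c2 lies on the minus strand (chr15:75111938-75112187) and holds an ETS motif. Mmp8 lies on the plus strand (chr9:7558179-7558428) and holds a C/EBP motif. Fcgr4 (chr1:171018676-171018925, plus strand) holds an ETS motif on the opposite strand. Bcl2a1b (chr9:89199023-89199272, plus strand) holds from left to right an RBP-J motif on the opposite strand, an AP-1 motif and an ETS motif.
Ly6c2: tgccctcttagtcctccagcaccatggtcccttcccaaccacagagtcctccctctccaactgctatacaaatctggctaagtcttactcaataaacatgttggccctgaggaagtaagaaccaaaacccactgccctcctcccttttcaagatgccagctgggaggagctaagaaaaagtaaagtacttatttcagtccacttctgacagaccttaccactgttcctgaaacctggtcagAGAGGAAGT
Mmp8: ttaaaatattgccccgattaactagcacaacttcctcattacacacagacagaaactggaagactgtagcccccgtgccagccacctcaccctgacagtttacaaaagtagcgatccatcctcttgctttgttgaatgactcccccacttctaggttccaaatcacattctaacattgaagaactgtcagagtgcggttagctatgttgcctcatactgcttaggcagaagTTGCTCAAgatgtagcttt
Fcgr4: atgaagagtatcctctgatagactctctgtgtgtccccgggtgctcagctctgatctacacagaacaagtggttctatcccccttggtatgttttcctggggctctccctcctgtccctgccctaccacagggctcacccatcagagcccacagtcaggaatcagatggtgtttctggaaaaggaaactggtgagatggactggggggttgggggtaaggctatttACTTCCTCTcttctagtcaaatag
Bcl2a1b: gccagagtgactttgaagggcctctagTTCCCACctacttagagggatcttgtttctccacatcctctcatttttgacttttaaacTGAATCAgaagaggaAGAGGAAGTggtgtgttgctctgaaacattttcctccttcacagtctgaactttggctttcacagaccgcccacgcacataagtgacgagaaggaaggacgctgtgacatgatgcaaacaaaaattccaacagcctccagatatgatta

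The searched letters were AGAGGAAGT for ETS factors such as PU.1, TTGCNNAA for C/EBP, TGANTCA for AP-1, GTGGGAA for RBP-J, CCACCC for KLF factors and AAAGGTCA for NR4A1. In Ly6c2, the last 12 bases, which include the match, lie inside the gene as deposited. The matches in these 4 sequences do not overlap each other. The ETS letters stood before 1.11% of all expressed genes, before 2 of the 70 higher genes (2.86%), Kmo and Ly6c2, and before 7 of the 57 lower genes (12.3%). Of these 7, the 3 Bcl2a1 genes are near-identical copies, and the others are Cd300ld, Dusp5, Fcgr4 and Slamf9. The C/EBP letters stood before 7.52% of expressed, 14.3% of higher and 8.77% of lower genes, and among the higher ones were Mmp8, S100a9, Fcnb and Retnlg.

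The AP-1 letters stood before 4.16% of expressed, 17.1% of higher and 14% of lower genes, the 3 Bcl2a1 genes again among the lower ones. The RBP-J letters stood before 5.12%, 7.14% and 10.5%, and 3 of the 6 lower genes with them were the Bcl2a1 copies. The KLF letters were found before 31.7%, 28.6% and 40.4%, and the NR4A1 letters before 1 gene in each direction, Trem2 and Slc5a11. The windows also differed in base composition, with a median GC content of 59.6% over expressed, 53.4% over higher and 55.6% over lower genes, and its part in these shares was not tested. Over the larger sets of genes that differed at least 2-fold, the shares in higher and lower genes were 10.3% and 10.7% for C/EBP, 5.76% and 5.73% for RBP-J, and 36.0% and 34.4% for KLF. They were 8.73% and 5.99% for AP-1, 1.40% and 3.13% for ETS, and 0.698% and 1.30% for NR4A1. The contrasts between directions seen at the strict thresholds were thus smaller or turned in these sets for C/EBP, RBP-J, KLF and ETS. A match of letters is not a shown binding site.

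Markers that are known for the subsets lay largely on their own side. Of 33 expressed genes on a list of classical markers, 27 were at least 2-fold higher and 1 lower in Ly6Chi monocytes, against 8.07% and 5.42% of all expressed genes, and the median log2 ratio of the list was 2.01. The list was chosen with the direction known, so its median describes these libraries and is not a finding of its own. The shares of all expressed genes just given also apply to the 2-fold counts of every list below. Beyond the genes already named, S100a8 and S100a4, small calcium-binding proteins, had 197 and 256 FPKM in Ly6Clo against 1085 and 1407 in Ly6Chi monocytes, each with a log2 ratio of 2.45. Vcan, a proteoglycan of the matrix, had 0.0398 and 10.2 (log2 ratio 3.43), and Plac8 had 1959 and 5529 (log2 ratio 1.5). The exception was Clec4e, a lectin that senses mycobacterial and fungal glycolipids, with 92.9 in Ly6Clo and 41.2 in Ly6Chi monocytes (log2 ratio -1.15).

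Of 36 expressed genes on the list of nonclassical markers, 26 were at least 2-fold lower and 0 at least 2-fold higher in Ly6Chi monocytes. The median log2 ratio of the list was -2.21. This list too was chosen with the direction known, so its counts and median describe these libraries and are not findings of their own. Treml4, a receptor that binds dying cells, had 1018 and 154 (log2 ratio -2.71), and Pglyrp1, which binds bacterial peptidoglycan, had 1648 and 166 (log2 ratio -3.30). Cd274, which encodes PD-L1, had 38.8 and 3.46 (log2 ratio -3.16). Itgax, the gene of CD11c, had 33.7 and 3.36 (log2 ratio -2.99). Several members differed by less than 2-fold. Cx3cr1, the fractalkine receptor by which Ly6Clo monocytes are commonly recognised, had 88.1 and 71.7 (log2 ratio -0.29). Cebpb and Klf2, transcription factors that nonclassical monocytes depend on, had log2 ratios of -0.65 and -0.88. Of 16 general monocyte and macrophage genes, 12 lay within 2-fold, Spi1 and Tyrobp among them, 3 were at least 2-fold higher in Ly6Chi monocytes (Cd14, Fcgr1 and Cebpa) and 1 lower (Emr1, the gene of F4/80).

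**Figure D3:**
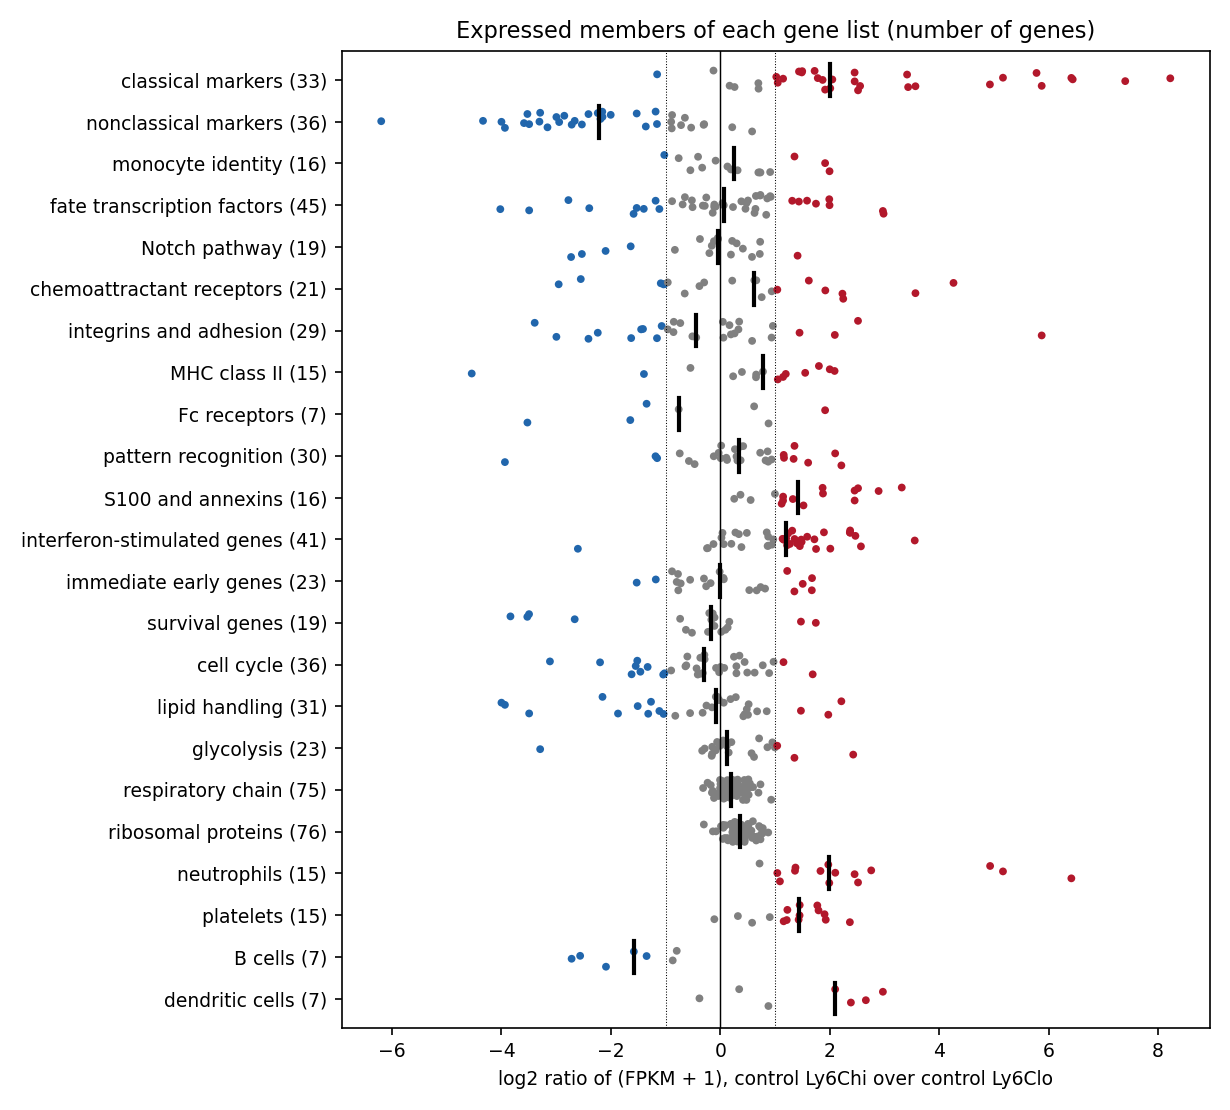
Log2 ratio of (FPKM + 1), control Ly6Chi over control Ly6Clo, of the expressed members of 23 gene lists, 1 point per gene and the number of genes in brackets. The black bar is the median of the list, and the dotted lines mark 2-fold. Medians run from -2.21 for nonclassical markers to 2.1 for dendritic cell genes and 2.01 for classical markers, and the 76 ribosomal protein and 75 respiratory chain genes all lie within 2-fold.

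Among 45 expressed transcription factors of myeloid cell fate, 8 were at least 2-fold higher and 9 lower in Ly6Chi monocytes. The shares over all expressed genes were 8.07% and 5.42%, and the median log2 ratio of the factors was 0.06. The higher ones included C/EBP factors, which drive granulocyte and monocyte development. Cebpa had 5.61 in Ly6Clo and 25.4 in Ly6Chi monocytes (log2 ratio 2.0), Cebpd had 11.5 and 41.1 (log2 ratio 1.75) and Cebpe had 0.423 and 4.66 (log2 ratio 1.99). Batf3, which is needed for type 1 dendritic cells, had 10.1 and 85.7 (log2 ratio 2.97). Irf4 and Irf7 had log2 ratios of 1.59 and 1.31, Myc had 0.442 and 2.90 (log2 ratio 1.44), and Tfec is listed at 0 in Ly6Clo and had 6.91 in Ly6Chi monocytes.

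The lower factors, besides Ets1 and Nr4a1, included nuclear receptors and the Wnt effector Tcf7l2. Pparg, which controls genes of lipid uptake and storage, had 208 in Ly6Clo and 17.6 in Ly6Chi monocytes (log2 ratio -3.49), and Nr1h3, the oxysterol receptor LXRα, had 14 and 5.93 (log2 ratio -1.11). Tcf7l2 had 157 and 22.1 (log2 ratio -2.77). Ets2 had 11 and 1.28 (log2 ratio -2.39), and Id3, an inhibitor of basic helix-loop-helix factors, had 29.2 and 9.09 (log2 ratio -1.58). Klf4 and Pou2f2 had log2 ratios of -1.40 and -1.18. Spi1, the gene of PU.1, which all monocytes need, had 903 and 851, and Irf8 had 77.9 and 130.3 (log2 ratio 0.73).

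In the Notch pathway, 1 of 19 expressed genes was at least 2-fold higher and 4 were lower in Ly6Chi monocytes. The shares over all expressed genes were 8.07% and 5.42%, and the median log2 ratio of the list was -0.05. Hes1 and Nrarp are direct targets of Notch signalling. Hes1 had 238 in Ly6Clo and 40.5 in Ly6Chi monocytes (log2 ratio -2.53), and Nrarp had 10.3 and 0.716 (log2 ratio -2.73). The ligand Jag1 had 5.64 and 0.555 (log2 ratio -2.09), and Maml2, a coactivator of the Notch complex, had a log2 ratio of -1.64. Of the receptors, Notch2 was the most abundant, with 126 and 70.3 (log2 ratio -0.83), whereas Notch1 had 0.38 and 2.67 (log2 ratio 1.41). Rbpj itself had 8.30 in Ly6Clo and 14.4 in Ly6Chi monocytes (log2 ratio 0.73). Hes1 and Nrarp were thus higher in Ly6Clo monocytes, while Rbpj differed by less than 2-fold. Hey1, Heyl and Dtx1, also on the list, are listed at 0 in both control libraries.

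Of 21 expressed chemoattractant receptors, 7 were at least 2-fold higher and 5 lower in Ly6Chi monocytes, against 8.07% and 5.42% of all expressed genes. Besides Ccr2, the higher ones included Ccr1, another receptor of inflammatory chemokines, with 0.445 and 26.7 (log2 ratio 4.26). Gpr183, which guides cells along gradients of oxysterols, had 3.15 and 18.7 (log2 ratio 2.25). Lower were Fpr1, S1pr5, S1pr4, C5ar1 and the chemokine receptor Ccr3. Fpr1 senses formylated bacterial peptides and had 59.5 in Ly6Clo and 6.82 in Ly6Chi monocytes (log2 ratio -2.95). S1pr5, a receptor of sphingosine 1-phosphate on which patrolling monocytes depend to leave the bone marrow, had 115 and 18.9 (log2 ratio -2.55). S1pr4, C5ar1 and Ccr3 had log2 ratios between -1.09 and -1.02.

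Of 29 expressed adhesion genes, 4 were at least 2-fold higher and 9 lower in Ly6Chi monocytes, against 8.07% and 5.42% of all expressed genes. The median log2 ratio of the adhesion genes was -0.44. The integrin chains Itga1 and Itga5 and the adhesion protein Icam1 were among the higher ones. Itga1 had 0.0778 in Ly6Clo and 5.17 in Ly6Chi monocytes (log2 ratio 2.52). Lower were Pecam1, an adhesion protein of vessel walls and leukocytes, with 54.1 and 4.26 (log2 ratio -3.39), the tetraspanins Cd9 (log2 ratio -2.41) and Cd81 (log2 ratio -1.63), and Spn, the gene of CD43, with 61.5 and 12.2 (log2 ratio -2.24). LFA-1, with which Ly6Clo monocytes crawl, consists of the chains encoded by Itgal and Itgb2. Itgal had 209.9 and 93.6 (log2 ratio -1.16), and Itgb2 had 1111 and 616 (log2 ratio -0.85).

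**Figure D4:**
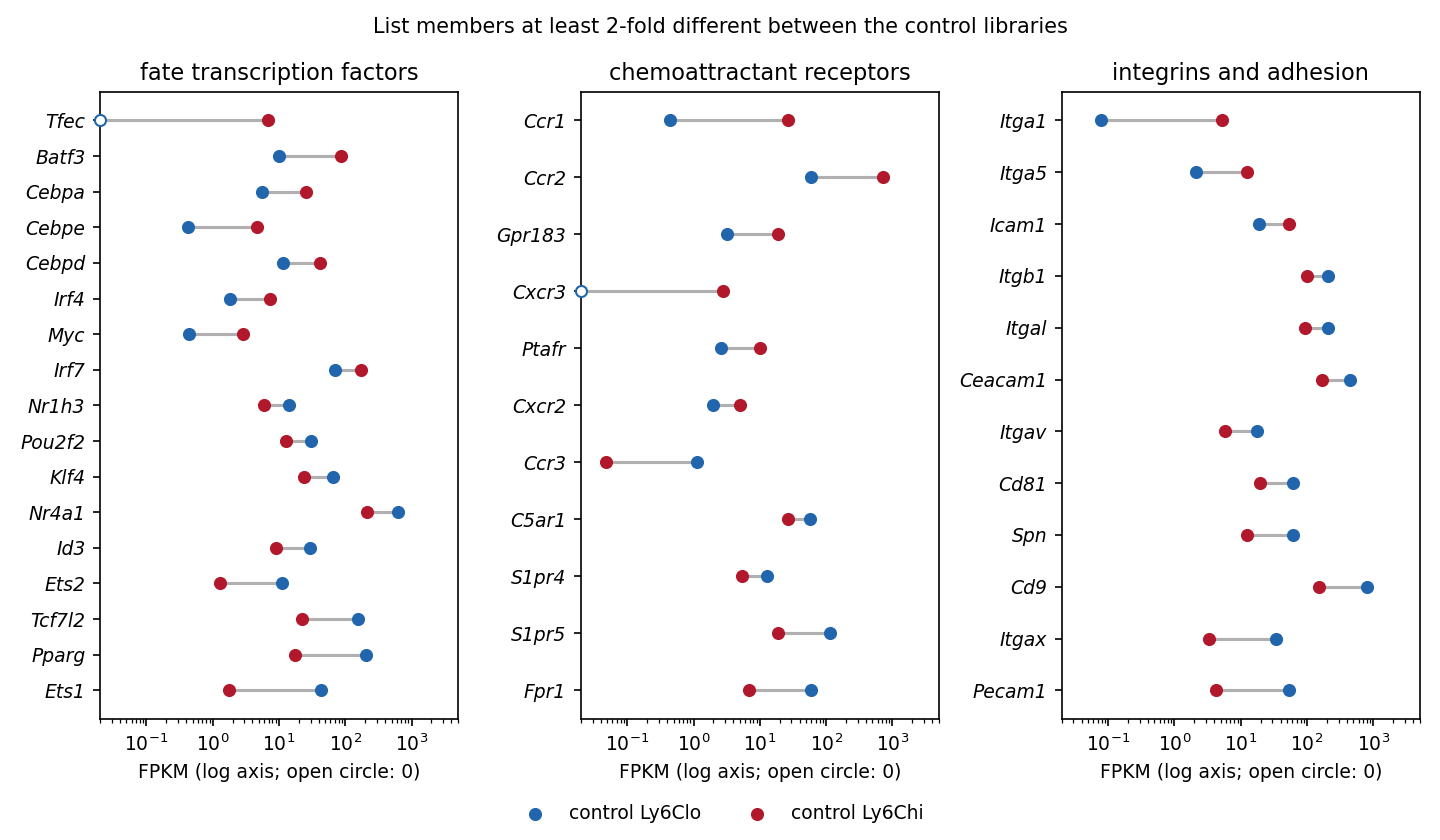
FPKM on a log axis in control Ly6Clo (blue) and control Ly6Chi monocytes (red) for the transcription factors, chemoattractant receptors and adhesion genes that differed at least 2-fold and are reported here, ordered by their ratio. An open circle at the left edge is a value listed as 0. In the left panel 8 factors are higher in Ly6Chi and 9 in Ly6Clo monocytes, in the middle panel 6 and 5 receptors, and in the right panel 3 and 9 adhesion genes.

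Genes of antigen presentation on MHC class II were more often higher than lower in Ly6Chi monocytes. Of 15 expressed, 7 were at least 2-fold higher and 2 lower (Cd83 and H2-Ob), against 8.07% and 5.42% of all expressed genes. The median log2 ratio of the list was 0.78. H2-Aa and H2-Ab1, which encode a class II molecule, had 260.3 and 979.8 FPKM in Ly6Clo and 765 and 2172 in Ly6Chi monocytes. H2-DMa, which helps to load the peptide, had 90.9 and 367 (log2 ratio 2.0), and Ciita, the master regulator of the class II genes, had 0.383 and 4.88 (log2 ratio 2.09). Dendritic cell genes moved with them: 4 of 7 were at least 2-fold higher and 0 lower. The list summed to an FPKM of 214 in Ly6Clo and 601 in Ly6Chi monocytes. Of these sums, Bst2, also listed as an interferon-stimulated gene, held 149 and 276 and differed by less than 2-fold. Flt3 had 1.15 and 12.6 and Cd209a had 41.8 and 183, while Xcr1, Siglech, Zbtb46 and Clec9a of the same list stayed below 1 in both libraries. The part of such cells in the class II result was not tested.

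Of 7 expressed Fc receptor genes, 1 was at least 2-fold higher and 3 were lower in Ly6Chi monocytes (Fcgr4, Fcgrt and the B cell gene Fcrla). Of all expressed genes, 8.07% were at least 2-fold higher and 5.42% lower. Fcgr1, the high-affinity receptor, had 15.6 in Ly6Clo and 61.7 in Ly6Chi monocytes (log2 ratio 1.92), opposite to Fcgr4. The activating Fcgr3 and the inhibitory Fcgr2b had log2 ratios of 0.62 and 0.88. Fcer1g, the signalling chain of the activating receptors, had 8889 and 5249.6 (log2 ratio -0.76). Of 30 pattern recognition genes, 7 were at least 2-fold higher and 3 lower. Clec7a, the β-glucan receptor Dectin-1, had 58.1 and 179 (log2 ratio 1.61) and Cd14 had 79.5 and 205 (log2 ratio 1.36), while Tlr4 had 10.2 and 10.

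S100 proteins and annexins, most of which bind calcium, were higher in Ly6Chi monocytes as a group. Of 16 expressed, 12 were at least 2-fold higher and 0 lower, with a median log2 ratio of 1.42. Of the 12, 5 also stand on the list of classical markers (Anxa2, S100a4, S100a6, S100a8 and S100a9), which was chosen with the direction known. S100a10 had 73.2 in Ly6Clo and 738 in Ly6Chi monocytes (log2 ratio 3.32), and Anxa1, which restrains inflammation, had 370.5 and 1065 (log2 ratio 1.52). Interferon-stimulated genes were also mostly higher, 23 of 41 by at least 2-fold with 1 lower and a median log2 ratio of 1.20. Ifi205 had 12.1 and 153 (log2 ratio 3.55), Isg15 had 9.26 and 59.9 (log2 ratio 2.57) and Ifit1 had 7.01 and 40.5 (log2 ratio 2.37). Stat2, a transcription factor that interferons activate, had a log2 ratio of 1.27. Ly6a, which encodes Sca-1, was the lower one, with 59.7 and 9.01 (log2 ratio -2.60).

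Immediate early genes, which respond within minutes to stimuli and to the handling of cells, did not move in one direction. Of 23 such genes, 5 were at least 2-fold higher in Ly6Chi monocytes, among them Fos (264 and 844, log2 ratio 1.67) and Junb (146 and 468, log2 ratio 1.68), and 2 were lower, Nr4a1 and Il1b. The median log2 ratio of the list was -0.01, and 8.07% and 5.42% of all expressed genes were at least 2-fold higher and lower. Nr4a1 is itself an immediate early gene.

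Of 19 expressed survival genes, 4 were at least 2-fold lower in Ly6Chi monocytes, Bcl2 and the 3 Bcl2a1 copies. At least 2-fold higher were 2, both of which promote cell death. Of all expressed genes, 5.42% were at least 2-fold lower and 8.07% higher. Bcl2 had 31.7 in Ly6Clo and 4.18 in Ly6Chi monocytes (log2 ratio -2.66). Bad had 16.7 and 58.5 (log2 ratio 1.75), and Bcl2l11, the gene of BIM, had 1.25 and 5.24 (log2 ratio 1.47). Other expressed genes of the list that promote cell death differed by less than 2-fold in either direction. Among them, Pmaip1 and Bbc3 had log2 ratios of -0.73 and -0.52, and Bax and Bid had 0.09 and 0.17. Mcl1, another survival gene, had 123 and 115. Of 36 expressed cell cycle genes, 2 were at least 2-fold higher and 9 lower, with a median log2 ratio of -0.30. Of genes that mark dividing cells, Mki67 and Cdk1 stayed below 1 in both libraries and Top2a had 1.33 and 0.149. The higher genes were the mitotic kinase Aurkb, with 0.944 and 5.27 (log2 ratio 1.69), and the histone gene H2afz, with 609 and 1357 (log2 ratio 1.16). The lower genes were led by the cyclin Ccnd2 (20.0 and 1.43, log2 ratio -3.11), the replication gene Mcm6 (21.5 and 3.91, log2 ratio -2.20) and Cdkn1b, an inhibitor of division, with 257 and 82.8 (log2 ratio -1.62).

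Of 31 expressed genes of lipid handling, 3 were at least 2-fold higher and 10 lower in Ly6Chi monocytes. The shares over all expressed genes were 8.07% and 5.42%, and the median log2 ratio of the list was -0.08. Beyond Fabp4, Cd36 and Pparg, the lower ones included genes of lipid transport and export. Apoe, the apolipoprotein that carries lipid out of macrophages, had 17490.0 in Ly6Clo and 7275 in Ly6Chi monocytes (log2 ratio -1.27), Apoc2 had 2132 and 479 (log2 ratio -2.15) and the cholesterol exporter Abcg1 had 227 and 79.0 (log2 ratio -1.51). Higher were the scavenger receptor Msr1 (35.6 and 169, log2 ratio 2.21), the cholesterol carrier of lysosomes Npc2 (100.4 and 397, log2 ratio 1.97) and the lipase Lpl (3.71 and 12.1, log2 ratio 1.47).

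Of 23 expressed glycolysis genes, 3 were at least 2-fold higher and 1 lower in Ly6Chi monocytes, against 8.07% and 5.42% of all expressed genes. Eno3, a form of enolase known from muscle, had 575 in Ly6Clo and 57.9 in Ly6Chi monocytes (log2 ratio -3.29), and Ldhb had 18.0 and 101 (log2 ratio 2.43), while Gapdh had 165 and 148. None of the 76 ribosomal protein genes and none of the 75 respiratory chain genes differed 2-fold. Their median log2 ratios were 0.35 and 0.19, and 73 and 62 of them, respectively, were higher in Ly6Chi monocytes by some amount, as were 50.1% of all expressed genes.

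Markers of other blood cells differed between the libraries. Of 15 expressed neutrophil genes, 14 were at least 2-fold higher in Ly6Chi monocytes and 0 lower, with a median log2 ratio of 1.99. Of these genes, 4 also stand on the list of classical markers (S100a8, S100a9, Mmp8 and Cd177). The defining granule genes Camp, Mpo and Ngp are listed at 0 in both libraries, and Ltf reached 0.0202 in Ly6Clo monocytes and is listed at 0 in Ly6Chi monocytes. Other granule genes of the list were detected in Ly6Chi monocytes: Prtn3, Elane and Ctsg are listed at 0 in Ly6Clo and had 29.5, 1.13 and 2.56 in Ly6Chi monocytes. Lcn2 had 1.25 and 4.84, and Mmp9 had 0.574 and 3.05. Platelet genes were higher as well, 11 of 15 by at least 2-fold with 0 lower, and they summed to 153 in Ly6Clo and 454 in Ly6Chi monocytes. Pf4 and Ppbp, abundant platelet chemokines, had 56.5 and 55.8 in Ly6Clo and 156 and 154 in Ly6Chi monocytes. F13a1 and Thbs1 can also come from platelets, and the part of such cells in their values was not tested.

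B cell genes were higher in the Ly6Clo library. Of 7 expressed, 5 were at least 2-fold lower in Ly6Chi monocytes, and the list summed to 177 in Ly6Clo and 82.2 in Ly6Chi monocytes. Most of these sums came from Cd37 (101 and 54.9) and Cd79b (41.9 and 23.7), which differed by less than 2-fold. Cd79a had 9.02 and 0.699 and Cd22 had 12.9 and 1.12, while Pax5 is listed at 0 in both libraries. The part of B cells in the values of Ets1, Bcl2 and other genes that lymphocytes also express was not tested. Hba-a2, a haemoglobin chain of red cells, had 1171 in Ly6Clo and 113 in Ly6Chi monocytes. It has a near-identical neighbour, Hba-a1, with which fragments may be shared. Of the other expressed red cell genes, Hbb-bt (394 and 211) and Alas2 (6.66 and 2.96) were also lower in Ly6Chi monocytes, by less than 2-fold, and Hbb-bs (11.1 and 32.7) was at least 2-fold higher. The list summed to 1583 in Ly6Clo and 360.5 in Ly6Chi monocytes. Of the lists of T, natural killer cells, and eosinophils and basophils, 2, 4 and 1 genes were expressed, with sums of 12.4 FPKM or less in either library.

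The RBP-J-deficient pair, which shares no library with the control pair, was used to ask whether the same genes divide the subsets there. Of the 102 genes that were at least 5.7-fold higher in control Ly6Chi monocytes, 97 were also higher in RBP-J-deficient Ly6Chi monocytes, where 49% of all expressed genes were, and 85 were at least 2-fold higher (10.3% of all). Their median log2 ratio was 3.08 in the control and 2.13 in the RBP-J-deficient pair. Of the 88 lower genes, 76 were lower there too, against 50.7% of all expressed genes, and 54 by at least 2-fold (7.89% of all). Past the strict thresholds themselves were 33 of the 102 (0.549% of all expressed genes) and 18 of the 88 (0.407%). The median log2 ratio of all 88 lower genes was -2.95 in the control and -1.33 in the RBP-J-deficient pair. These genes were chosen for a large ratio in the control pair, and such a choice by itself favours larger ratios in the pair it was made in. Chosen by the RBP-J-deficient pair instead, from the genes expressed there, 61 genes were past the upper and 44 past the lower threshold, and their medians were 2.73 and -1.42 in the control against 3.04 and -2.71 in the RBP-J-deficient pair.

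Single genes followed the control pair to unequal degrees. F13a1 had 10.7 in Ly6Clo and 283 in Ly6Chi monocytes of RBP-J-deficient mice (log2 ratio 4.60), and Cd300e had 564 and 61.9 (log2 ratio -3.17). Capg had 409.9 and 701, a log2 ratio of 0.77 against 4.69 in control mice, and Ccr2 had 474 and 624, a log2 ratio of 0.40 against 3.57. Nr4a1 had 65.6 and 182 (log2 ratio 1.46) and Ace had 17.7 and 24.7 (log2 ratio 0.46), both opposite in sign to the control pair. Among the Notch targets, Hes1 had 11.7 and 14.1 and Nrarp is listed at 0 in Ly6Clo and had 0.767 in Ly6Chi monocytes. Of 633 genes that differed at least 2-fold in both pairs, 611 did so in the same direction. Each pair is 1 library a side, and differences between the pairs were not tested. A value of 0 in the RBP-J-deficient libraries may be a failed estimate, since Actb, which encodes β-actin, is listed at 0 in both.

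**Figure D5:**
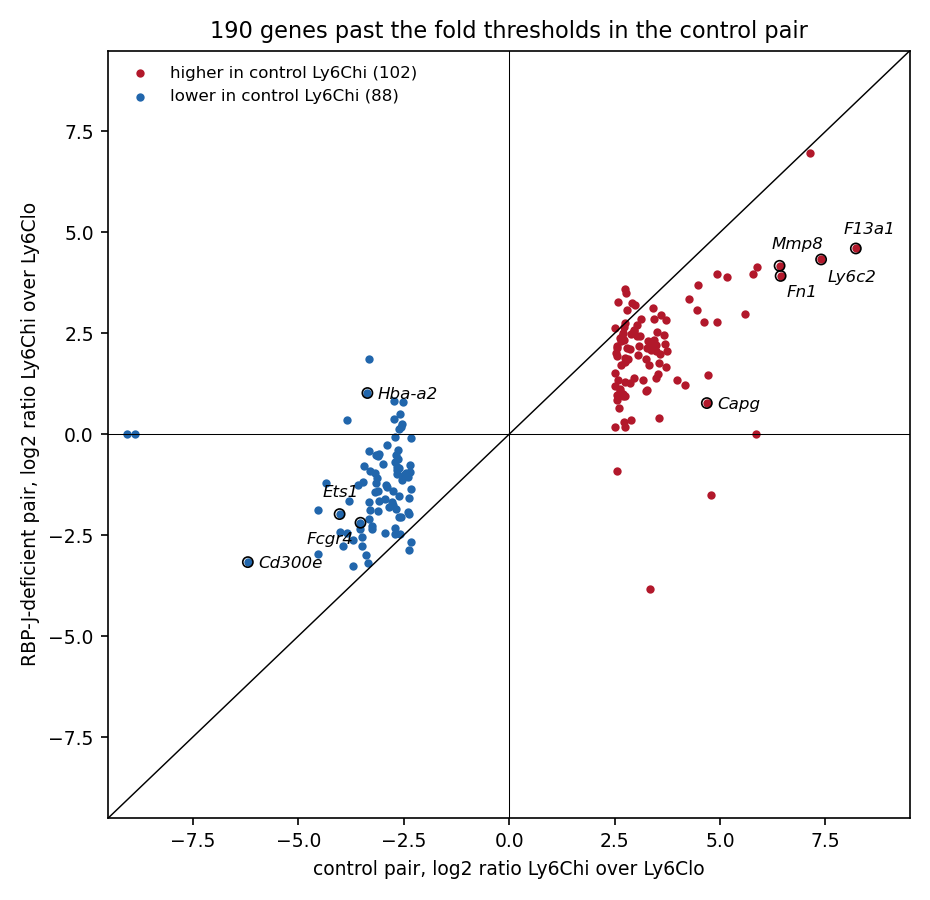
Log2 ratio of (FPKM + 1), Ly6Chi over Ly6Clo, in the control pair (horizontal axis) and the RBP-J-deficient pair (vertical axis) for the 190 genes past the fold thresholds in the control pair, 1 point per gene. The diagonal marks equal ratios. Most points lie between the diagonal and 0, with medians of 3.08 and 2.13 for the 102 higher genes (red) and of -2.95 and -1.33 for the 88 lower genes (blue).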

How the data were processed

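The authors prepared libraries from total RNA of sorted monocytes and sequenced paired ends on an Illumina HiSeq2500 instrument. The submitters' processing notes name CASAVA 1.8, TopHat2 2.1.0, Cufflinks 2.2.1 and the mouse build mm10, without their settings. The authors deposited FPKM values of 23997 gene rows for each pair of the 4 libraries, in the layout of Cuffdiff, along with fold changes, test statistics, p-values and q-values of their own comparisons, which were not used. Values were read from the rows of the pair compared. With 1 library per group, no test, error or interval was computed, and no read counts were at hand.

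Ratios of (FPKM + 1) were then formed on the log2 scale for every gene that reached an FPKM of 1 in either control library. The fold thresholds, at least 5.7 and at most 0.2, follow the study's methods, and list members were counted at 2-fold. Spreadsheet software had turned the symbols of 27 rows into dates, 15 of them expressed. Such rows entered the counts of genes and no list. In the control pair, 1 row was marked as a failed estimate, and 29 expressed rows name several symbols.

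Named are the 4 markers, the 15 genes with the largest and the 15 with the smallest ratio at a mean FPKM of at least 10 (small RNAs left out), members of the gene lists beside the count of their list, and the values nearest the thresholds. Some genes that entered the counts are not reported here by name. The gene lists, the comparison and the motifs were chosen with earlier results of these data known. Genes named for a motif, and Actb, were chosen after their values were seen.

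Motifs were searched in the 250 bases before the RefSeq start site nearest to the deposited start of a gene. Transcript identity came from local alignments of the longest protein-coding GENCODE M21 transcripts. Python 3.11.15, numpy 2.4.6, pandas 2.3.3, statsmodels 0.14.6 and matplotlib 3.10.9 were used. Alternatives were the pseudocount (0.1 and 5), no filter on FPKM, a mean FPKM of at least 10, an FPKM of at least 1 in both libraries, rescaling to TPM, median centring and rows of status OK. A correction for GC content was chosen after seeing the data: a lowess trend (fraction 0.3, 3 iterations) through 6122 genes whose mean FPKM was 5 or more.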

Additional observations from a re-analysis of the deposited data

Results flagged for a closer look

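Of the named and listed genes, 3 differed at least 2-fold between the subsets in both genotypes but in opposite directions. The difference between the genotypes was not tested, since each value compares 1 library with 1 other. Nr4a1, the nuclear receptor on which Ly6Clo monocytes depend, had a log2 ratio of (FPKM + 1), Ly6Chi over Ly6Clo, of -1.53 in the control pair and of 1.46 in the pair that lacks RBP-J. Its FPKM in control Ly6Clo, control Ly6Chi, RBP-J-deficient Ly6Clo and RBP-J-deficient Ly6Chi monocytes was 618, 214, 65.6 and 182. The 2 Ly6Clo libraries thus held the highest and the lowest value. Clec4d, a lectin that partners with Clec4e in sensing mycobacteria, had a log2 ratio of 1.16 in the control pair and of -1.39 in the other pair, with an FPKM of 9.55, 22.6, 67.6 and 25.3 in the same order. Its highest value was in the RBP-J-deficient Ly6Clo library. Hba-a2 had a log2 ratio of -3.36 in the control pair and of 1.02 in the other pair, and its FPKM was 1171 in control Ly6Clo monocytes and between 89.4 and 183 in the other libraries.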

How the results depend on the processing

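No paired analysis was possible because each group holds 1 library and the labels give no replicate numbers. Of 36 counts of genes past a threshold, 24 stayed within 1.5 times the main count and 12 moved. With a pseudocount of 0.1, 284 genes were at least 5.7-fold higher in control Ly6Chi monocytes (102 in the main analysis), 197 were at 0.2-fold or lower (88) and 816 were at least 2-fold lower (533). With a pseudocount of 5 these counts were 34, 43 and 241, and 365 genes were at least 2-fold higher (794). At a mean FPKM of at least 10, 62 genes were at least 5.7-fold higher, 330 at least 2-fold higher and 256 at least 2-fold lower. Requiring an FPKM of at least 1 in both libraries left 57 genes at least 5.7-fold higher and 523 at least 2-fold higher. These settings differ in how much weight, or any, they give to genes that are low or listed at 0 in 1 library.

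The higher genes made up 53.7% of all genes past the strict thresholds, and 44.2% with a pseudocount of 5 and with an FPKM of at least 1 in both libraries. No log2 ratio of a named or listed gene and no list median that was at least 2-fold changed sign. Of 248 list medians recomputed, 233 stayed on the same side of 2-fold, and that of the B cell genes, for example, went from -1.58 to -0.73 without a filter on FPKM. Rescaling to TPM shifted the ratios by 0.01 in the control and by 0.21 in the RBP-J-deficient pair on the log2 scale. Across genes, the log2 ratio had a Spearman correlation with GC content of 0.18 in the control and of 0.33 in the RBP-J-deficient pair. After the trend of the control pair was subtracted, 96 of the 102 higher and 85 of the 88 lower genes were still past the thresholds. Without read counts, the depth that limits genes of low FPKM is unknown.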

Other observations

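Several gene families not described above moved together in the control pair. They were chosen after their values were seen, and their members often share sequence, so that fragments may be divided wrongly among them. Of 7 expressed Schlafen genes, 6 were at least 2-fold higher in Ly6Chi monocytes, with Slfn5 at 2.77 in Ly6Clo and 31.2 FPKM in Ly6Chi monocytes and Slfn4 at 2.48 and 22.1. All 6 genes of the Ifi200 family, which sense DNA or restrain growth, were at least 2-fold higher, among them Mnda with 33.0 and 248. Both Tmem176 genes, which encode neighbouring membrane channels, were higher, with 12.3 and 118 for Tmem176a and 59.7 and 586 for Tmem176b. Of 8 Ms4a genes, 6 were at least 2-fold higher and 1, the B cell gene Ms4a1, was lower.

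Other families were lower in Ly6Chi monocytes or divided. All 4 rows of the Ear family of ribonucleases were at least 2-fold lower, with log2 ratios from -3.10 to -1.78. The H2-Q family of nonclassical MHC class I genes was split. Of its 8 rows, 5 were at least 2-fold lower and 2, H2-Q10 and H2-Q8, were higher. H2-Q8 had 0.00186 and 2.58, while a row that names H2-Q6 and H2-Q8 together had 55.9 and 7.64, the opposite direction. The Ly6 family was split too: Ly6c1 and Ly6c2 were higher in Ly6Chi monocytes, while Ly6a, Ly6d and Ly6i were lower, with 239.7 and 52.9 for Ly6i and 17.4 and 1.46 for Ly6d. The Cd300 family was split as well, with 3 of 7 rows lower, Cd300e first among them, and Cd300lg higher (log2 ratio 2.56). Among Trem genes, Treml4, Trem1 and Trem3 were lower and Trem2 and the platelet gene Treml1 higher.

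Of single genes, Wfdc17, a secreted inhibitor of proteases, had 461 in Ly6Clo and 5124 in Ly6Chi monocytes (log2 ratio 3.47). Ccl2, the ligand of CCR2, had 0.421 and 17.2 (log2 ratio 3.68), and Tgfbi, a matrix protein, had 29.5 and 228 (log2 ratio 2.90).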
